A study of Homo sapiens with 6 samples.

Results

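The p53 pathway was described through 31 genes, which are regulators of p53, targets that p53 is known to switch on, or close relatives of such targets. All 31 were found by symbol in the count table, 1 row each, among 60419 rows in all. They were selected by symbol, with no measured value in the rule, although earlier results of these data were known. Sestrin genes and most apoptosis genes were left out, although some members, such as AEN and TP53I3, are known from cell death. The libraries came from 12Z, an immortalised line of human endometriotic cells, wild type, grown in medium with 10% charcoal-stripped serum. Myrrh-treated cells received a myrrh extract in DMSO at 100 µg/mL for 12 h (3 libraries), and vehicle-treated cells received DMSO (3 libraries). Nothing in the labels says that the replicates came from separate cultures. The p-values therefore set the difference between the groups against the spread of these libraries only, and that spread may be technical. A single line cannot stand for endometriotic tissue.

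p53 is a transcription factor that is kept scarce in unstressed cells by MDM2, a ubiquitin ligase whose own gene p53 activates, so that the pair forms a negative feedback loop. DNA damage and other stresses free p53 from MDM2, and p53 then binds pairs of a conserved decamer near its target genes. The targets arrest the cell cycle, repair DNA, change metabolism or prepare cell death, and many of them also answer to other stress factors.

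Depth was 22454783 to 24531493 estimated counts in the Myrrh libraries and 22592816 to 27588151 in the DMSO libraries. Mitochondrially encoded genes took 6.84% to 8.45% of the counts in Myrrh libraries and 14.0% to 14.7% in DMSO libraries. Their part in the results below was not tested. On the TPM scale, which divides counts by transcript length, the epithelial keratin gene KRT8 was at 548 TPM in Myrrh and 771 TPM in DMSO, while EPCAM was at 2.54 TPM in Myrrh and 1.12 TPM in DMSO. The 5 epithelial markers summed to 1160 to 1270 TPM in Myrrh libraries and 1570 to 1600 TPM in DMSO libraries, and the 5 mesenchymal and stromal markers to 1800 to 1900 TPM in Myrrh and 3620 to 3670 TPM in DMSO. The Müllerian and endometrial markers summed to 12.2 to 13.9 TPM in Myrrh libraries and 31.6 to 35.8 TPM in DMSO libraries, where HOXA10 was at 9.52 TPM in Myrrh and 31.3 TPM in DMSO, PAX8 at 3.36 TPM in Myrrh and 2.92 TPM in DMSO, and EMX2 listed at 0. Leukocyte markers summed to at most 0.54 TPM in Myrrh and 3.02 TPM in DMSO and endothelial markers to at most 0.04 and 0.27 TPM, with CD3E and CDH5 listed at 0. The part of these marker levels in the results was not tested.

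Promoter sequence is shown for the genes of the set that carry a p53 decamer beside their start. Their responses are set beside it further below, as a description only. RefSeq promoter windows (GRCh38.p14, 250 bases before to 50 after each start) were available for 26 of the 31 genes, and GADD45A, FBXO22, RRM2B, PHLDA3 and TP53INP1 had no entry. The p53 decamer, which reads the same on both strands, was searched without mismatches. It occurred in 6.63% of all 35116 promoter windows and in windows of 4 of the 26 genes, PLK2, AEN, DDB2 and FDXR. A pair of decamers at most 13 bases apart was found in 0.0285% of all windows, 10 in number, and DDB2 was the 1 gene of the set with such a pair. The 26 genes had 35 windows between them, so these counts of genes cannot be set directly against shares of windows. The stretches below run 5′ to 3′ on the strand of the gene, with the decamers in capitals.
PLK2: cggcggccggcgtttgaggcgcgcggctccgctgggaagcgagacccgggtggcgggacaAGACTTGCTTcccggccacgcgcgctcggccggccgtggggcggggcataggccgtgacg
AEN: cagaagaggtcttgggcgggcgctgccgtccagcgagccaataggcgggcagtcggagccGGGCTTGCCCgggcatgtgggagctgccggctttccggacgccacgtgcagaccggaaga
DDB2: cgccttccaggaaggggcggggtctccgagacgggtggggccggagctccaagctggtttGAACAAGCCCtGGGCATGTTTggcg
FDXR: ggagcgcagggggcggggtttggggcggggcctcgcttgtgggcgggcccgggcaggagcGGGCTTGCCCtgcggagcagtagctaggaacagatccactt
The PLK2 stretch is chr5:58460159-58460278 on the minus strand, and its decamer lies at positions -132 to -123 counted from the start that RefSeq lists. AEN is shown at chr15:88621246-88621365 on the plus strand with a decamer at -34 to -25. DDB2 is shown at chr11:47214919-47215003 on the plus strand, beside the downstream one of its 2 listed starts, with decamers at 6 to 15 and 17 to 26 after that start. FDXR is shown at chr17:74872965-74873065 on the minus strand beside the upstream one of its 2 listed starts, with a decamer at -11 to -2. In GENCODE release 29, whose gene bounds reach farther upstream, the decamers of all 4 genes lie inside the gene, so these positions hold for the RefSeq starts. A match is a description of the letters and not a measured binding site. TGATGNAAT, the core of the element bound by ATF4 and C/EBP factors, searched on both strands, was in 0.991% of all windows and in none of those of the 26 genes, which says only that these letters are not in these windows.

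After filtering of low counts, 29 of the 31 genes were tested, and 16 rose and 6 fell in Myrrh. Across all 16395 genes tested, the quasi-likelihood test of edgeR called 78.4% at a Benjamini-Hochberg adjusted p under 0.05, with 39.3% higher and 39.1% lower. The share of p53 genes called, 75.9%, was therefore close to that of all genes, with 55.2% higher and 20.7% lower. Changes of at least 2-fold were found for 7 genes upwards (GADD45G, GADD45A, KITLG, TIGAR, AEN, PLK3 and PLK2) and for 2 downwards (POLH and DDB2), against 11.3% and 18.0% of all genes. The median log2 fold change (Myrrh over DMSO) was 0.28 over the 29 genes and -0.02 over all genes. Libraries of the 2 groups did not overlap in CPM, counts brought to a common library size with TMM factors, for 23 of the 29, against 80.3% of all genes. GADD45G passed the filter on low counts through its Myrrh libraries alone. Its entries among the genes higher, 2-fold higher and not overlapping were therefore bound to follow. Scaling to library totals instead of TMM factors moved the median of all genes by -0.14, and the split was 14 higher and 11 lower, against 32.8% and 45.6% of all genes. Less RNA of a gene per cell and fewer cells that express it cannot be told apart in these bulk libraries.

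**Figure D1:**
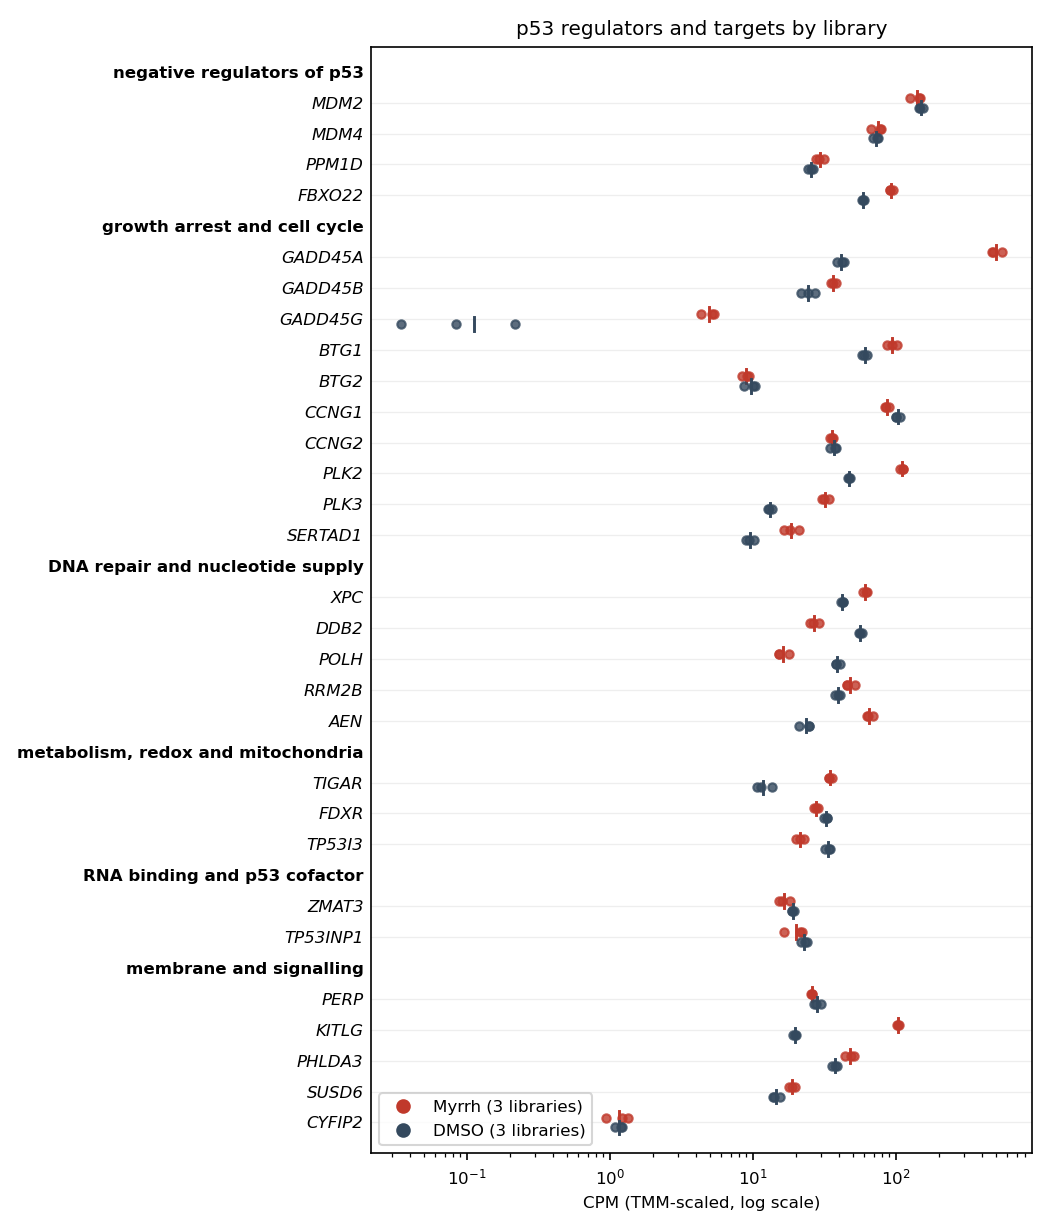
CPM of the 29 tested genes by library on a log axis, in rows by role, with Myrrh libraries in red above DMSO libraries in dark blue and a vertical tick at each group mean. GADD45A stands at 470.5 to 551 CPM in Myrrh against 39.0 to 43.7 CPM in DMSO, while MDM2 points of the groups overlap.

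Of the 4 negative regulators of p53, FBXO22 and PPM1D rose, and MDM2 and MDM4 were not called. MDM2 had 146, 148 and 126 CPM in Myrrh and 148, 144 and 154 CPM in DMSO. The groups overlapped, and the log2 fold change of -0.09 ± 0.06 (SE) was not called (edgeR adjusted p = 0.158). MDM2 lies on chromosome 12 at 68808176 to 68850686 (GRCh38) and had the highest level of the set in DMSO per transcript length, at 100.2 ± 4.91 TPM (SD, n = 3), with 108.0 ± 14.7 TPM in Myrrh. Without Myrrh replicate 2 its log2 fold change was -0.13 and was called (edgeR adjusted p = 0.0451), and it was also called with a filter of 5 CPM in 3 libraries (-0.19). Without Myrrh replicate 3 it was -0.0065 (edgeR adjusted p = 0.913), and on log2(TPM + 1) the sign turned, at 0.10 (limma adjusted p = 0.342). With library totals it was -0.23 and called, which is -0.07 relative to the median gene, as it is with TMM factors. Exons of MDM2 overlap AC025423.2 on the same strand over 3.3% of their bases, and AC025423.4 on the opposite strand over 5.91%. AC025423.2 held 11.55 CPM in Myrrh and 8.67 CPM in DMSO, and AC025423.4 10.7 and 7.43 CPM, each called higher. The gene named CPM, on the opposite strand over 1.0%, held 0.783 and 4.04 CPM. MDM2 counts were not whole in any library, and the part of shared reads was not tested. MDM4, the related protein that binds p53's activation domain, had 78.9, 77.5 and 67.4 CPM in Myrrh and 74.8, 73.5 and 68.7 CPM in DMSO, which overlap, and was not called (edgeR adjusted p = 0.482). Its sign flips to -0.10 with library totals, and without Myrrh replicate 3 it was called higher at 0.13 (edgeR adjusted p = 0.0441).

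PPM1D, the phosphatase that removes activating phosphates from p53 and its kinases, had 31.3, 28.8 and 27.8 CPM in Myrrh and 25.3, 24.4 and 26.5 CPM in DMSO. It rose by 0.21 ± 0.07 (edgeR adjusted p = 0.00817), a small change. The call was lost without DMSO replicate 2 (edgeR adjusted p = 0.0588), without Myrrh replicate 1 (0.0536), with library totals, on TPM and where 5 CPM was required in 3 libraries. FBXO22, the substrate receptor of a ubiquitin ligase that acts on histone demethylases and on methylated p53, had 90.3, 95 and 91.4 CPM in Myrrh and 58.3, 59.3 and 60.0 CPM in DMSO. It rose by 0.64 ± 0.05, with no overlap between the groups (edgeR adjusted p = 1.34e-11).

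The GADD45 genes encode small acidic proteins that bind PCNA, cyclin-dependent kinase complexes and the stress kinase MAP3K4, and all 3 rose. GADD45A had 470.5, 551 and 475 CPM in Myrrh and 42.3, 43.7 and 39.0 CPM in DMSO. Each Myrrh library was far above each DMSO library, a log2 fold change of 3.58 ± 0.07 (edgeR adjusted p = 4.03e-23), and 0.433% of all genes tested had a higher value. The gene spans chromosome 1 at 67685061 to 67688338 with 4 exons in its longest transcript. Per length it ranked first of the 31 in Myrrh at 566 ± 26.2 TPM, against 47.8 ± 3.01 TPM and rank 5 in DMSO. GADD45B (chromosome 19, 2476122 to 2478259) had 36.5, 38.2 and 35.0 CPM in Myrrh and 24.3, 27.0 and 21.7 CPM in DMSO. Its rise of 0.59 ± 0.07 (edgeR adjusted p = 6.69e-08) was the smallest of the family. GADD45G (chromosome 9, 89605013 to 89606555) held 333 counts over the Myrrh libraries and 9 over the DMSO libraries, that is 4.32, 5.33 and 5.21 CPM in Myrrh and 0.0842, 0.0347 and 0.216 CPM in DMSO. The ratio was 44.1 with a 95% exact binomial interval of 22.9 to 97.2 that covers counting error only. It passed the filter on low counts through its Myrrh libraries alone, so that a call was bound to follow, and at 7.34 ± 0.577 TPM it stayed far below GADD45A.

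The PLK2 and PLK3 genes encode stress-responsive polo-like kinases, and both rose. PLK2 had 106, 111 and 112 CPM in Myrrh and 47.3, 46.6 and 47.6 CPM in DMSO, a rise of 1.22 ± 0.05 (edgeR adjusted p = 2.21e-17). PLK3 had 31.3, 30.2 and 34.3 CPM in Myrrh and 13.7, 12.8 and 12.9 CPM in DMSO, a rise of 1.28 ± 0.07 (edgeR adjusted p = 1.41e-14). The groups were well apart for both kinases. SERTAD1, which binds CDK4 and acts as an E2F cofactor, had 16.5, 21.1 and 18.2 CPM in Myrrh and 8.92, 10.3 and 9.41 CPM in DMSO and rose by 0.96 ± 0.09 (edgeR adjusted p = 9.37e-10).

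Among the antiproliferative BTG proteins, which recruit the deadenylases that shorten mRNA tails, BTG1 rose and BTG2 was not called. BTG1 averaged 94.1 ± 7.40 CPM in Myrrh and 60.5 ± 2.36 CPM in DMSO (SD, n = 3 each; edgeR adjusted p = 1.61e-10). BTG2, a classical p53 target, had 9.47, 9.05 and 8.41 CPM in Myrrh and 8.67, 10.0 and 10.4 CPM in DMSO. These groups overlapped, at a log2 fold change of -0.11 ± 0.10 (edgeR adjusted p = 0.308). CCNG1, the cyclin G that brings a phosphatase to MDM2, had 84.2, 90.1 and 85.7 CPM in Myrrh and 100.1, 101 and 107 CPM in DMSO, and fell by 0.25 ± 0.05 (edgeR adjusted p = 0.000103). CCNG2, a cyclin G better known as a target of FOXO factors, averaged 35.5 ± 0.844 CPM in Myrrh and 36.9 ± 1.74 CPM in DMSO and was not called (edgeR adjusted p = 0.397). Library totals gave calls for BTG2 (-0.26, edgeR adjusted p = 0.0293) and CCNG2 (-0.20, 0.00729), and CCNG2 was also called where 5 CPM was required in 3 libraries (0.0216). On log2(TPM + 1) the sign of CCNG2 turned, at 0.07 (limma adjusted p = 0.42).

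The 5 genes grouped under DNA repair and nucleotide supply, with the nuclease AEN among them, were all called, 3 higher and 2 lower, where 78.4% of all genes were called. POLH, the polymerase that copies past ultraviolet lesions, had 17.8, 15.3 and 15.3 CPM in Myrrh and 37.9, 38.2 and 40.6 CPM in DMSO. DDB2, which binds ultraviolet-damaged DNA and hands it to repair, had 25.2, 26.3 and 29.2 CPM in Myrrh and 57.7, 55.3 and 56.5 CPM in DMSO. Every Myrrh library was below every DMSO library for both, with falls of 1.27 ± 0.07 for POLH (edgeR adjusted p = 9.89e-15) and 1.07 ± 0.06 for DDB2 (1.94e-14). On TPM, POLH stood at 4.04 ± 0.895 in Myrrh and 7.59 ± 1.04 in DMSO, so its fall was under 2-fold there. XPC, the damage sensor of the same repair route as DDB2, rose, with 61.6, 59.2 and 62.8 CPM in Myrrh and 41.0, 42.6 and 42.5 CPM in DMSO (0.54 ± 0.06, edgeR adjusted p = 1.68e-09). In GENCODE release 29 its exons overlap those of 3 genes on the opposite strand, AC093495.1 over 23.8% of their bases, AC090004.1 over 8.61% and LSM3 over 6.63%. The sources used here do not give the strand setting, and without it reads of such overlapping pairs cannot be told apart. AC093495.1 held 1.31 CPM in Myrrh and 2.66 CPM in DMSO, AC090004.1 3.26 CPM in Myrrh and 2.28 CPM in DMSO, and LSM3 40.4 CPM in Myrrh and 48.5 CPM in DMSO.

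AEN, a nuclease that takes part in cell death after damage, had 63.3, 62.5 and 68.9 CPM in Myrrh and 21.2, 24.6 and 24.9 CPM in DMSO. It rose by 1.46 ± 0.07, without overlap between the groups (edgeR adjusted p = 1.09e-16). RRM2B, the p53-inducible subunit of ribonucleotide reductase, averaged 47.7 ± 3.44 CPM in Myrrh and 39.2 ± 1.65 CPM in DMSO, a rise of 0.28 ± 0.06 (edgeR adjusted p = 0.000208) that was not called with library totals (0.14, edgeR adjusted p = 0.06). Set against the promoter stretches shown above, the 4 genes with a p53 decamer did not move one way. PLK2 and AEN rose at least 2-fold, DDB2, with the paired decamers, fell at least 2-fold, and FDXR fell by 0.23. Sites outside the promoter windows were not searched, and any part of the decamer in these changes was not tested.

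Of the genes of metabolism and mitochondria, TIGAR rose, FDXR and TP53I3 fell, and SPATA18 was not expressed at a testable level. TIGAR, a sugar-phosphatase that slows glycolysis and favours NADPH production, had 35.6, 33.8 and 34.2 CPM in Myrrh and 10.6, 11.4 and 13.6 CPM in DMSO. It rose by 1.54 ± 0.08, and the lowest Myrrh library was well above the highest DMSO library (edgeR adjusted p = 1.49e-15). AC008012.1, annotated as protein coding on the same strand, overlaps 42.6% of TIGAR's exon bases and held 2.18 CPM in Myrrh and 0 in DMSO, so that the split of reads between the 2 genes is uncertain. TP53I3, a quinone reductase known from p53-driven cell death, had 20.1, 21.3 and 22.6 CPM in Myrrh and 33.9, 34.5 and 32.0 CPM in DMSO, and fell by 0.65 ± 0.07 (edgeR adjusted p = 2.38e-09). FDXR, the reductase that feeds electrons to mitochondrial ferredoxins, averaged 27.6 ± 0.701 CPM in Myrrh and 32.4 ± 0.761 CPM in DMSO (edgeR adjusted p = 0.00165), a call that was lost on TPM. SPATA18, a mitochondrial quality control gene, had 1 count in Myrrh and 0 in DMSO.

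KITLG, the ligand of the KIT receptor, showed the largest change among the genes of membrane and signalling. It had 101, 104 and 104 CPM in Myrrh and 20.1, 19.0 and 19.6 CPM in DMSO, with little spread within each group. The rise was 2.40 ± 0.06 (edgeR adjusted p = 1.95e-22), and 1.28% of all genes tested had a higher value. The gene lies on chromosome 12 at 88492793 to 88580851. PHLDA3, which competes with AKT for membrane lipids, rose by 0.36 ± 0.06 (47.7 ± 3.16 CPM in Myrrh and 37.3 ± 1.56 CPM in DMSO; edgeR adjusted p = 1.11e-05). SUSD6, a membrane protein reported as a p53 target that slows growth, rose by 0.38 ± 0.08 (18.8 ± 0.911 CPM in Myrrh and 14.4 ± 0.997 CPM in DMSO; edgeR adjusted p = 0.000123). That call was lost on log2(TPM + 1) over all genes above 0 in any library (limma adjusted p = 0.0622). PERP, a desmosomal protein, had 25.4, 26.1 and 26.0 CPM in Myrrh and 26.6, 27.6 and 29.7 CPM in DMSO. Its groups did not overlap, but the change of -0.12 ± 0.07 was not called (edgeR adjusted p = 0.111). PERP was called lower with library totals (-0.26, edgeR adjusted p = 0.00148) and where 5 CPM was required in 3 libraries (-0.22, 0.00445). CYFIP2, a part of the actin-regulating WAVE complex, averaged 1.17 ± 0.205 CPM in Myrrh and 1.17 ± 0.0634 CPM in DMSO (edgeR adjusted p = 0.996). EDA2R, a receptor of the TNF receptor family, had 1 count in Myrrh and 6 in DMSO (ratio 0.198, 95% exact binomial interval 0.00431 to 1.64) and was not tested.

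ZMAT3, an RNA-binding protein and p53 target, and TP53INP1, a stress-induced protein that promotes p53 phosphorylation and autophagy, moved little. ZMAT3 had 18.3, 15.9 and 15.2 CPM in Myrrh and 18.7, 19.4 and 18.8 CPM in DMSO, and fell by 0.20 ± 0.08 (edgeR adjusted p = 0.025). Its groups did not overlap, but the call was marginal. It was lost without DMSO replicate 2 (log2 fold change -0.19, edgeR adjusted p = 0.0709), DMSO replicate 3 (-0.21, 0.0505), Myrrh replicate 2 (-0.17, 0.0738) or Myrrh replicate 3 (-0.13, 0.151). It was also lost with DESeq2 (0.157), with no filter on low counts and on TPM. TP53INP1 had 22.2, 21.5 and 16.6 CPM in Myrrh and 21.7, 23.1 and 23.8 CPM in DMSO, at -0.19 ± 0.09 (edgeR adjusted p = 0.0616). Its groups overlapped, with Myrrh replicate 3 the lowest, and without that library the value was -0.05 (edgeR adjusted p = 0.513). It was not called without DMSO replicate 2 (edgeR adjusted p = 0.124) or DMSO replicate 3 (0.195). It was called lower without DMSO replicate 1 (edgeR adjusted p = 0.0431), Myrrh replicate 1 (0.0208) or Myrrh replicate 2 (0.0442), with the replicate number as a block (0.0363), with library totals (0.00307) and with a filter of 5 CPM in 3 libraries (0.00532).

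**Figure D2:**
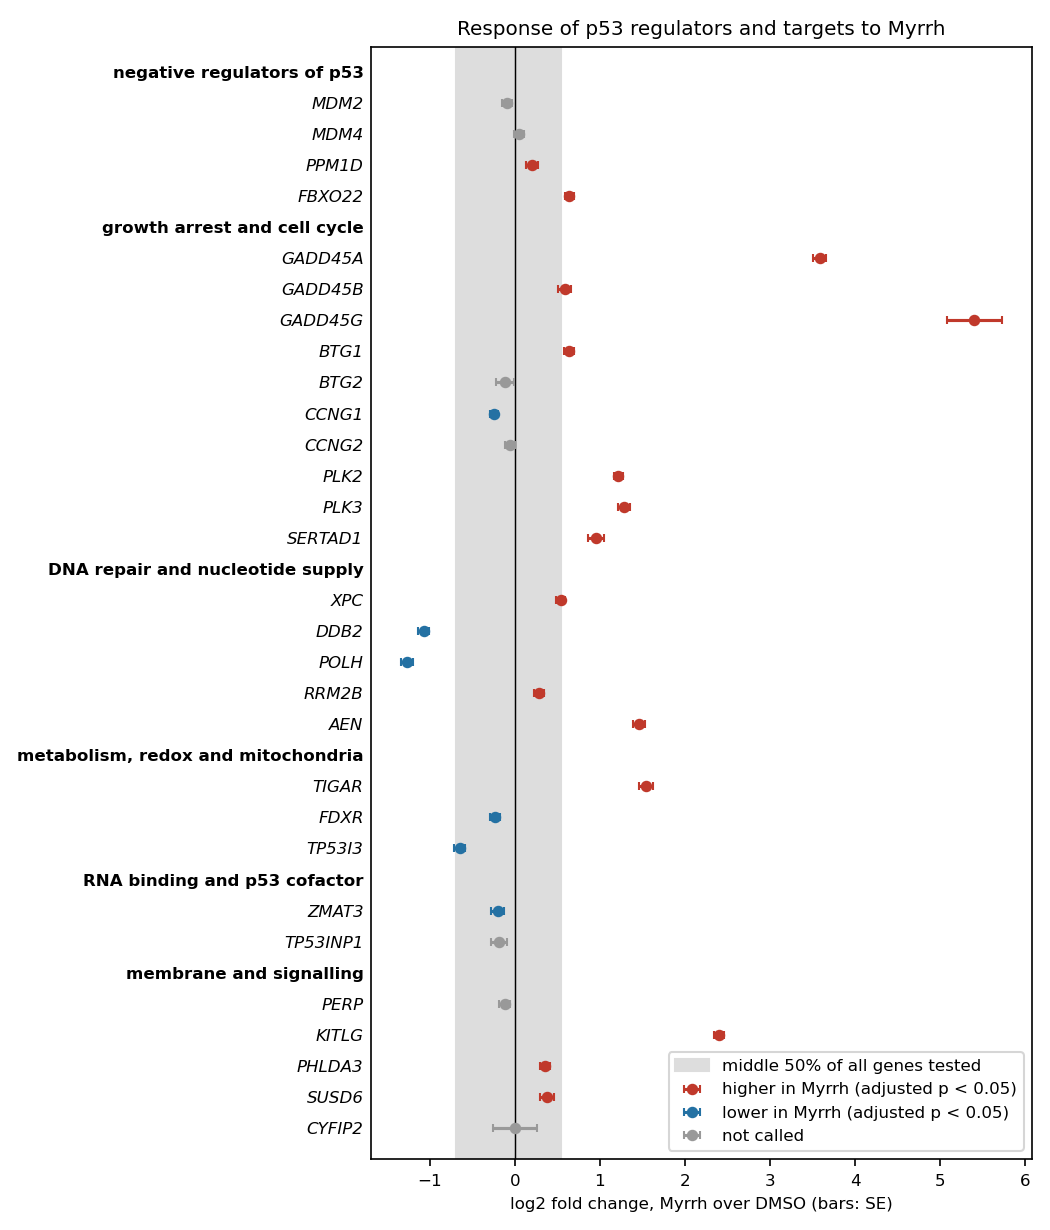
Log2 fold change of Myrrh over DMSO for the 29 tested genes by role, with bars for the SE and the middle 50% of all genes tested shaded (-0.69 to 0.55). GADD45G, GADD45A and KITLG lie farthest to the right, POLH and DDB2 farthest to the left, and MDM2 and MDM4 near 0.

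Members of 1 gene family were set against each other within each library, as log2 ratios of TPM, which need no scaling between libraries. The log2 ratio of GADD45A to GADD45B was 3.70, 3.89 and 3.80 in Myrrh libraries and 0.89, 0.84 and 0.97 in DMSO libraries, so GADD45A exceeded GADD45B 13.9-fold in Myrrh and 1.86-fold in DMSO. The difference of 2.90 ± 0.07 (SE) gave p = 0.1 in a two-sided exact permutation test, the smallest that 3 against 3 libraries allow (adjusted over 7 pairs, 0.117). The log2 ratio of BTG1 to BTG2 was 4.26 ± 0.10 in Myrrh and 3.53 ± 0.21 in DMSO (SD, n = 3 each; exact permutation p = 0.1, adjusted 0.117). That of MDM2 to MDM4 was 2.13 ± 0.10 in Myrrh and 2.69 ± 0.23 in DMSO (exact permutation p = 0.1, adjusted 0.117), with a difference of -0.56 on TPM and of -0.14 on CPM. That of CCNG1 to CCNG2 was 1.81 ± 0.04 in Myrrh and 2.09 ± 0.09 in DMSO (exact permutation p = 0.1, adjusted 0.117), and the difference was -0.28 on TPM and -0.19 on CPM. PLK2 to PLK3 stood at 1.31 ± 0.02 in Myrrh and 1.48 ± 0.19 in DMSO, with overlapping libraries (exact permutation p = 0.4, adjusted 0.4). The ratios to GADD45G rest on the 9 DMSO counts of that gene and spread widely in DMSO. GADD45A to GADD45G was at 6.27 ± 0.13 in Myrrh and 8.55 ± 1.43 in DMSO, and GADD45B to GADD45G at 2.48 ± 0.19 in Myrrh and 7.65 ± 1.50 in DMSO (exact permutation p = 0.1, adjusted 0.117, for each). GADD45G passed the filter on low counts through its Myrrh libraries alone, so these p-values are no support for a difference. Both remain among the 7 pairs of the adjustment.

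**Figure D3:**
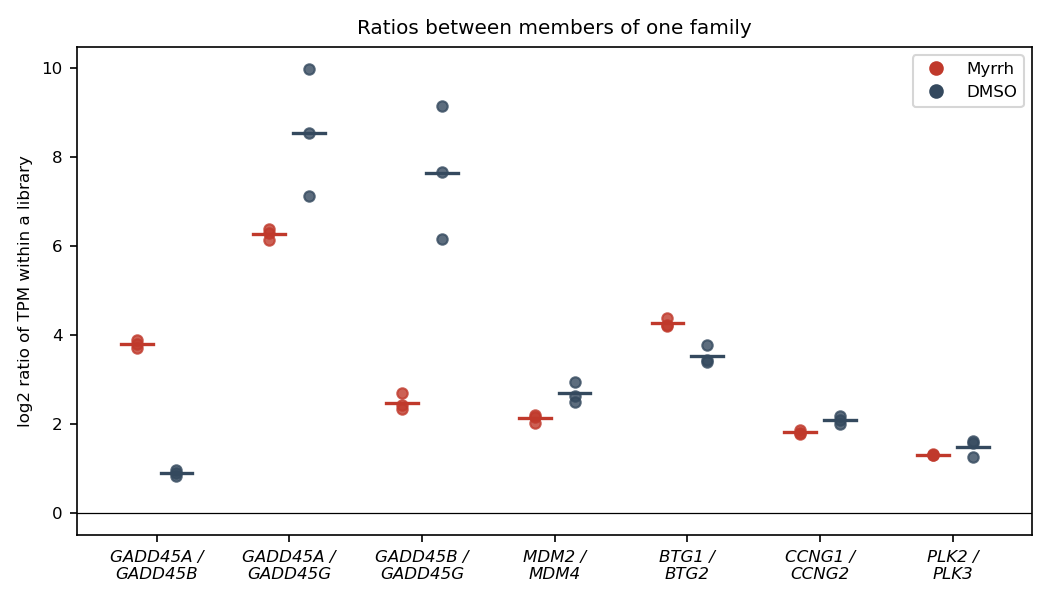
Log2 ratio of TPM between 2 genes of a family within each library, Myrrh libraries in red left of DMSO libraries in dark blue, with a bar at each mean. The mean GADD45A to GADD45B ratio stands at 3.80 in Myrrh and 0.90 in DMSO, and the PLK2 to PLK3 ratios overlap.

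For some genes TPM and counts gave different answers. RSEM divides a gene's reads by the mean length of the transcripts it assigns them to, so the quotient of count and TPM carries an implied transcript length. This measure was added after the values were seen. It was centred on the median gene of each library and compared with limma over 11815 genes with at least 50 counts and 1 TPM in every library, of which 15.4% were called and 10.0% were called shorter in Myrrh. Among 788 genes with 1 annotated transcript, whose length cannot shift, the log2 difference lay between -0.0019 and 0.0042 from the 5th to the 95th percentile. SERTAD1 and PERP, which have 1 annotated transcript each, were at 0.0022 and 0.0040. Of the 27 p53 genes measured, 2 were called, FBXO22 and MDM4, both shorter in Myrrh.

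FBXO22 (chromosome 15, 75903859 to 75942510) has 9 annotated transcripts of 316 to 10725 bases. Its centred log2 length was -0.37, -0.30 and -0.42 in Myrrh libraries and 0.38, 0.39 and 0.33 in DMSO libraries. The groups were far apart, with an implied length in Myrrh of 0.603 times that in DMSO (log2 -0.73 ± 0.04, limma adjusted p = 0.0019), and 0.686% of the genes measured had a lower value. In TPM, FBXO22 stood at 83.4 ± 4.55 in Myrrh and 31.4 ± 1.57 in DMSO, a 2.66-fold rise against 1.56-fold in counts. FBXO22 counts were not whole numbers in any library, and RSEM splits reads that match several genes. The gene NRG4 on the opposite strand overlaps 16.2% of its exon bases and held 0.617 CPM in Myrrh and 2.95 CPM in DMSO. The part of shared reads in the length difference was not tested.

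MDM4 (chromosome 1, 204516379 to 204558120) has 17 annotated transcripts of 481 to 10073 bases. Its centred log2 length was -0.16, -0.40 and -0.31 in Myrrh libraries and 0.16, 0.28 and 0.42 in DMSO libraries, a difference of -0.58 ± 0.09 (limma adjusted p = 0.0236). MDM4 thus stood at 24.6 ± 1.72 TPM in Myrrh and 15.6 ± 1.90 TPM in DMSO, a rise that limma called on log2(TPM + 1) at 0.63 ± 0.10 (adjusted p = 0.000123), while counts differed by 0.05. The length call for MDM4 was lost without DMSO replicate 2 (limma adjusted p = 0.0775), DMSO replicate 3 (0.0611) or Myrrh replicate 3 (0.0732), and with the replicate number as a block (0.105). POLH was at -0.31 ± 0.11 (limma adjusted p = 0.133) and PLK2 at 0.22 ± 0.06 (limma adjusted p = 0.0702), neither called.

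**Figure D4:**
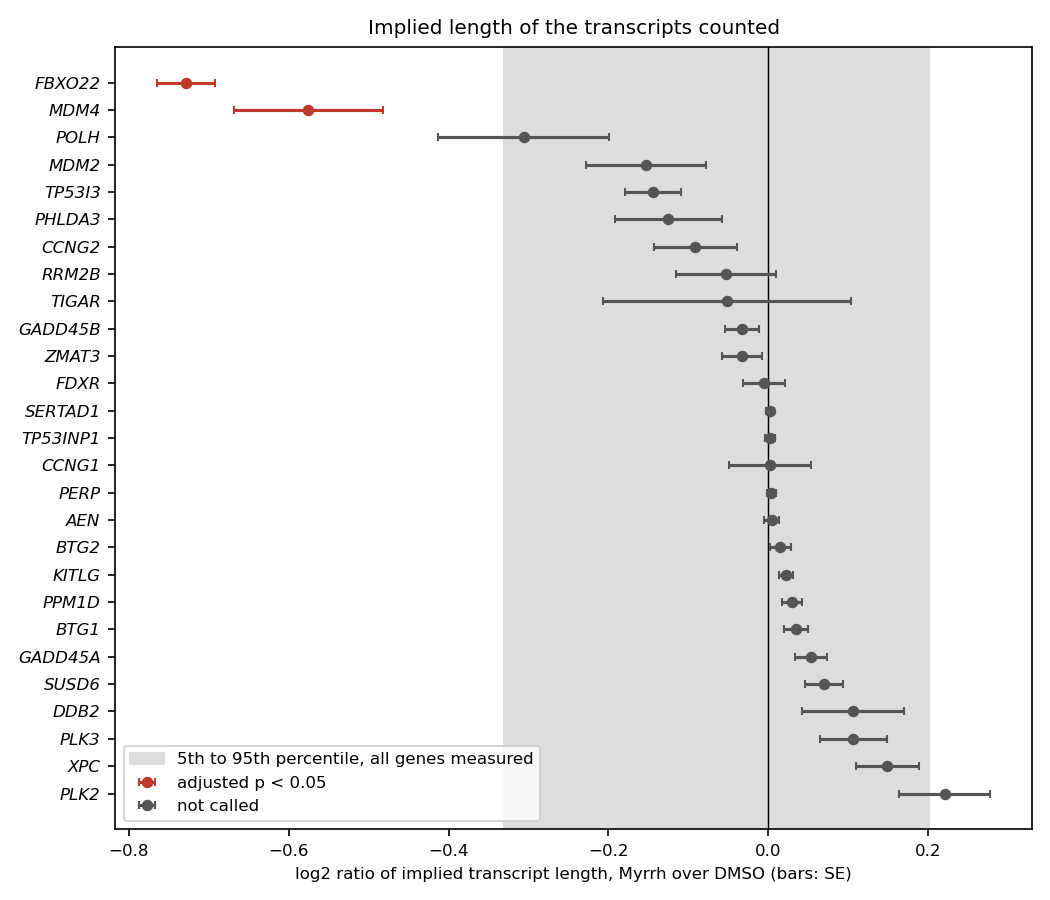
Log2 ratio of implied transcript length, Myrrh over DMSO, for the 27 p53 genes measured, with bars for the SE and the 5th to 95th percentile of all genes measured shaded (-0.33 to 0.20). FBXO22 and MDM4, in red, lie left of the shaded range, and SERTAD1 and PERP near 0.

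The rest of the pathway moved in both directions as well. The 2 lists of other p53 genes were chosen with earlier results of these data known, so their shares only describe the lists. Of 60 other p53 target genes, 57 were tested, and 28 rose (49.1%) and 21 fell (36.8%), against 39.3% and 39.1% of all genes, with a median log2 fold change of 0.22. The largest rises among these with at least 5 CPM were in HSPA4L, a chaperone of the HSP110 family (118 ± 8.05 CPM in Myrrh and 13 ± 0.843 CPM in DMSO), the stress cytokine GDF15 (277 ± 6.22 and 31.8 ± 2.05 CPM) and the phosphatase PTP4A1 (216 ± 17.4 and 33.7 ± 0.579 CPM). The largest falls were in DGKA, a diacylglycerol kinase (23.8 ± 2.12 CPM in Myrrh and 65.2 ± 3.72 CPM in DMSO), the cytidine deaminase APOBEC3C (25.5 ± 1.82 and 64.5 ± 1.79 CPM) and the semaphorin receptor PLXNB2 (142 ± 10.6 and 307 ± 8.78 CPM). CDKN1A, the cell cycle inhibitor p21 and the best-known p53 target, had 355, 358 and 384 CPM in Myrrh and 180, 196 and 202 CPM in DMSO. Its rise of 0.93 ± 0.06 was just under 2-fold (edgeR adjusted p = 6.92e-14).

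Of 26 other regulators of p53, all tested, 16 rose (61.5%) and 4 fell (15.4%), against 39.3% and 39.1% of all genes, with a median log2 fold change of 0.28. Because this list was also chosen with earlier results known, the shares are no test of the regulators. The largest rises were in TP53BP2, the p53 partner ASPP2 (135 ± 5.97 CPM in Myrrh and 55.3 ± 2.74 CPM in DMSO), the kinase DYRK2 (33.1 ± 2.22 and 14.4 ± 1.02 CPM) and TP53RK, a kinase-like part of the tRNA-modifying KEOPS complex (23.8 ± 1.23 and 10.7 ± 0.273 CPM). The falls were led by the acetyltransferase KAT8 (28.1 ± 2.02 CPM in Myrrh and 43.6 ± 0.571 CPM in DMSO), the ASPP-family inhibitor PPP1R13L (28.3 ± 0.740 and 42.9 ± 0.587 CPM) and PRKDC, the catalytic subunit of the DNA-dependent kinase (318 ± 20.4 and 414 ± 12.0 CPM). With library totals, 13 regulators were called higher and 8 lower, against 32.8% and 45.6% of all genes.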

How the data were processed

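RNA-seq libraries from 12Z cells (3 Myrrh, 3 DMSO; 1.5 µg of total RNA each, TruSeq kit, per the labels' protocols) were grouped by sample title. The authors' first deposited table holds estimated counts per gene, unscaled, and the second deposited table holds log2(TPM + 1). The submitters' processing notes name STAR, RSEM 1.3.1 and GRCh38. The annotation release and strand setting were not given in the sources used here. Per library, 11.1% to 12.2% of the table's genes had an estimated count that was not a whole number (tolerance 1e-06). RSEM splits reads that match several genes. Counts of 4 of the 31 genes (MDM2, FBXO22, XPC and POLH) were not whole in any library, and these levels are less certain.

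Counts were rounded, filtered with filterByExpr and scaled with TMM factors (0.934 to 0.973 in Myrrh, 1.05 in DMSO). Myrrh was compared with DMSO by the quasi-likelihood test of edgeR (version 4.0.16, R 4.3.3, robust, two-sided) over 16395 genes, with Benjamini-Hochberg adjustment and a threshold of 0.05. SE is the log2 fold change over the square root of F. limma 3.58.1 served for log2 values. Genes and lists were chosen with earlier results of these data known. All 31 genes were named, with CDKN1A and the 3 highest and 3 lowest called genes of at least 5 CPM from each list of other p53 genes. Alternatives were other scalings and filters, DESeq2 1.42.0, TPM with pseudocounts of 1 and 0.1, a replicate block and leaving out each library. Coordinates, transcripts and overlaps came from GENCODE release 29 on GRCh38. In 5 simulated sets of 16395 genes for this comparison, 200 genes were changed. Of those changed 2-fold, 81.6% were recovered, and 5.22% of calls were false. Since 78.4% of genes were called in the data themselves, these shares may not carry over to them. Between libraries of a group, chi-square per degree of freedom was 3.65 to 8.71, so none agreed within sampling noise.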

Additional observations from a re-analysis of the deposited data

How the results depend on the processing

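Of the counts of genes called, those at least 2-fold higher in the p53 set (6 to 8 over all settings) and those of the other p53 target genes stayed within 1.5 times the main value. With library totals, 11 of the 31 genes were called lower in place of 6, and with a filter of 5 CPM in 3 libraries 10 were; 8 other regulators were called lower in both settings in place of 4. By construction library totals shift all genes by -0.14, and the stricter filter shifted the same genes by -0.10. On TPM with either pseudocount or over all genes above 0 in any library, POLH no longer passed 2-fold and 1 gene was at least 2-fold lower in place of 2. Its implied length differed by -0.31. With ratios of CPM in place of TPM, the paralogue contrasts were 2.99 for GADD45A over GADD45B (main 2.90), -0.14 for MDM2 over MDM4 and -0.19 for CCNG1 over CCNG2. The number of p53 genes with a changed implied length was 1 to 3 when each library was left out. No gene that was called with the main settings changed sign in another. Of those not called there, MDM2, MDM4, CCNG2 and CYFIP2 took both signs over the settings. Same-numbered libraries did not deviate together (correlations -0.0744, 0.00432 and 0.0457 across genes). A weak pairing, or 1 limited to some genes, would not show in these values. With the replicate block 16 genes of the set were called higher and 7 lower. Depth limits GADD45G in DMSO (9 counts), EDA2R and SPATA18.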
